A study of Mus musculus with 46 samples.

Results

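The miR-99/100 and miR-125 miRNAs were followed through 8 genetically engineered mouse mammary tumor models and normal mammary gland, with the Her2/neu model (MMTV-H2N) as the main point of comparison. The members were the 5 array miRNAs that the deposited raw table lists as mmu-miR-99a, mmu-miR-99b, mmu-miR-100, mmu-miR-125a and mmu-miR-125b, which were 5 of 334 mouse miRNAs and 20 of 1336 spots. All 5 were found. Total RNA from 41 primary tumors of individual female mice and from 5 normal glands was labelled with the dye Hy3, with 1 array per sample.

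Normal gland came from pregnant FVB mice without a transgene. The titles of the normal samples share a prefix and do not say whether each gland came from its own mouse. The tests treat these samples as independent. Of the 8 models, 5 were FVB mice that carry an oncogene under the mouse mammary tumor virus (MMTV) promoter, which is active in mammary epithelium and also at some ectopic sites. These were MMTV-H2N (5 tumors), which expresses the Her2/neu receptor, MMTV-Hras (5, H-Ras), MMTV-PymT (6, polyoma middle T antigen), MMTV-Wnt (4, Wnt1) and MMTV-C-Myc (4, c-Myc), and the study treats them as luminal. The 3 models it treats as basal were C3TAg, in which viral T antigens are driven by the C3(1) promoter (5 tumors, FVB), p53-/-, in which an MMTV-driven cre removes p53 and tumors come from transplanted tissue (7 tumors, Balb/C), and Brca1-/-p53+/-, in which an MMTV-driven cre removes Brca1 in mice with a single copy of p53 (5 tumors, 129B6/FVB). Strain coincided with model for p53-/- and Brca1-/-p53+/-, so the effects of strain and model cannot be told apart there. Ages were not given in the sources used here.

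miRNAs guide the silencing complex to messenger RNAs, mainly through pairing of the seed near their 5′ end. The miR-99/100 family is known in human cells for lowering mTOR, the IGF1 receptor and the chromatin remodeler SMARCA5. miR-125 is the mammalian counterpart of worm lin-4, a regulator of developmental timing, and in human breast cancer cells it is known to repress ERBB2, the human Her2/neu, and ERBB3. In mammals both families lie beside let-7 genes in conserved clusters, from which a shared primary transcript can be processed into several miRNAs.

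The mature sequences show how closely the members resemble each other. All 5 members matched a RefSeq entry (GRCm38.p6), taken as the 5p arm that the older array names denote, and the seed, bases 2 to 8, is in capitals. The miR-99/100 sequences share 1 seed.
miR-99a: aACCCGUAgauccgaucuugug
miR-100: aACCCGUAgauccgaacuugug
miR-99b: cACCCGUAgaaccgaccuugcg
The miR-125 sequences share another.
miR-125a: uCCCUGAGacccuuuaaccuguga
miR-125b: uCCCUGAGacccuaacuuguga

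Counted from 1 at the 5′ end of miR-99a, miR-100 differs from it by the single substitution U16A. miR-99b differs from miR-99a by A1C, U11A, U16C and U21C. Cross-hybridisation between the probes for miR-99a and miR-100 was not tested, so their separate levels are uncertain to that extent. miR-125a and miR-125b share their first 13 bases. Among 1679 mature mouse miRNAs of the RefSeq table, 3 carry the miR-99/100 seed and 5 carry the miR-125 seed.

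Each member belongs to a 3-gene cluster on the plus strand. Mir99a (chr16:77598940-77598961 for the mature bases) lies 0.71 kb from Mirlet7c-1 and 47.32 kb from Mir125b-2 (chr16:77646279-77646300). Mir100 (chr9:41531437-41531458) lies 5.26 kb from Mirlet7a-2 and 50.48 kb from Mir125b-1 (chr9:41581940-41581961), and all 3 fall within the span of the long non-coding RNA gene Mir100hg. Mir99b (chr17:17830194-17830215) lies 0.15 kb from Mirlet7e and 0.6 kb from Mir125a (chr17:17830817-17830840), within the span of the protein-coding gene Spaca6. The mature miR-125b of the 2 loci is identical, so its signal is the sum of the chromosome 9 and chromosome 16 genes.

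Signals are given in array intensity units before scaling, and scaled levels as log2 intensity less the array median, averaged over the 4 spots of a miRNA. A miRNA was counted as above the detection limit where its signal exceeded 3 times the 5th percentile of the array, a measure of background. Members passed this limit in 209 of 230 array values, and their spots on an array had a median SD of 0.15 on the log2 scale. The C3TAg and p53-/- arrays stood apart, with 31 to 111 of 334 miRNAs above the limit per array, against 168 to 304 in the other groups. Their array medians lay near background, at 125 to 323 in C3TAg (5th percentiles 92.7 to 241) and 94.9 to 203 in p53-/- (61.4 to 114). Scaled levels on these arrays are therefore heights over background, and the sizes of scaled folds against them are uncertain. The epithelial markers (the miR-200 family and miR-141, 5 of 5 measured) were above the limit on every array of normal gland and of the 5 MMTV models, but as few as 0 were on some Brca1-/-p53+/- and C3TAg arrays, although all of these were labelled as mammary tumors. Fewer cells of a type and less RNA per cell cannot be told apart in these bulk samples. A probe's signal also depends on the probe, so levels of different members are not ranked against each other.

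**Figure D1:**
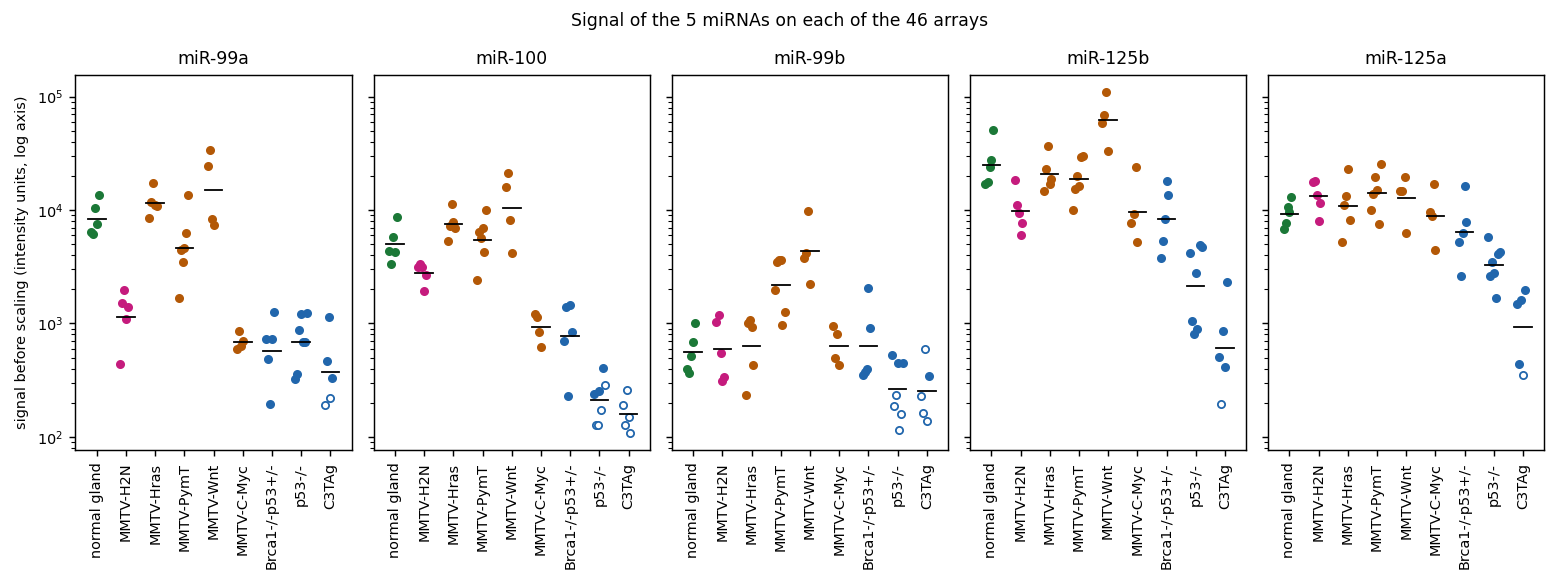
Signal before scaling (intensity units, log axis) of each member on the 46 arrays, by group, with bars at the geometric mean. Normal gland is green, MMTV-H2N magenta, the other models treated as luminal orange and the basal ones blue, and open circles mark values at or below 3 times the 5th percentile of the array. miR-99a of MMTV-H2N tumors lay between 443 and 1975, below all normal glands, while miR-125a signals of these groups overlapped.

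miR-99a was lower in MMTV-H2N tumors than in normal gland, and it was the only member called there. Its signal was 6429, 6162, 10400, 7499 and 13516 in the normal glands and 443, 1500, 1975, 1089 and 1406 in the tumors. Every tumor lay below every normal gland, with and without scaling. The scaled level was 4.73 ± 0.30 in normal gland and 2.01 ± 0.84 in the tumors (SD, n = 5 each), a log2 fold of -2.71 (SE 0.51), or 6.56-fold, with an adjusted p of 2.55e-05 in limma with Benjamini-Hochberg adjustment over all 334 miRNAs. Of all miRNAs, 51.2% were called in this comparison and 22.5% were called lower, and the median log2 fold over all miRNAs was 0.35, against -0.68 over the 5 members.

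miR-100, which differs from miR-99a by 1 base, gave 4321, 3357, 5806, 4259 and 8682 in normal gland and 3122, 3342, 3149, 1922 and 2700 in MMTV-H2N. All 5 tumor signals were below the lowest normal gland, though by little for the highest, and the scaled ranges overlapped. The log2 fold was -0.68 (SE 0.51), with an adjusted p of 0.24.

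miR-99b gave 398, 368, 517, 688 and 1018 in normal gland and 1025, 1197, 548, 314 and 337 in MMTV-H2N. Tumors lay on both sides of the normal glands, and the log2 fold was 0.24 (SE 0.51, adjusted p 0.684).

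miR-125b, which carries the seed known for ERBB2 repression in human cells, gave 16907, 17709, 24174, 27566 and 50468 in normal gland and 18254, 11021, 9369, 6012 and 7634 in MMTV-H2N. The first tumor lay among the normal glands and the other 4 lay below them. The log2 fold was -1.22 (SE 0.59) with an adjusted p of 0.0743, which passed the threshold only without that tumor (-1.70, adjusted p 0.0154) or when the fit held just these groups (adjusted p 0.0199).

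miR-125a, of the same seed, gave 6800, 7667, 10563, 9658 and 12892 in normal gland and 17758, 18108, 13504, 7968 and 11506 in MMTV-H2N. The ranges overlapped, although 3 tumors lay above every normal gland. The log2 fold was 0.66 (SE 0.47, adjusted p 0.216) and reached 1.36 (adjusted p 0.00303) when arrays were scaled to their 75th percentile.

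Markers of other cells also differed between these groups. The summed scaled level of stroma and smooth muscle miRNAs (4 of 5 listed measured, all above the limit) ran from 7.41 to 8.04 in normal gland and from 5.34 to 6.86 in MMTV-H2N, and that of leukocyte miRNAs (4 of 5 measured) from 4.79 to 6.06 and from 2.98 to 4.44. Neither sum overlapped between the groups, while those of epithelial, erythroid and fat miRNAs did. Within the lists, 2 of 4 stroma and smooth muscle miRNAs were called lower and 1, miR-214, was called higher (1.03, adjusted p 0.00557), and 2 of 4 leukocyte miRNAs were called lower, with miR-142-5p at 0.77 (not called). Of 3 skeletal muscle miRNAs measured, 2 were called lower and 0 higher, and their sums overlapped (2.25 to 7.56 in normal gland, 2.88 to 5.64 in MMTV-H2N). Of all miRNAs, 22.5% were called lower in this comparison and 28.7% higher. The single measured endothelial marker was not above the limit on any normal gland. The part of these cells in the member differences was not tested.

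Differences between 2 members of the same array do not change when all log2 values of the array shift by the same amount. Scaling to a median or percentile is such a shift. Quantile normalization is not, and the differences were not recomputed under it. As given, these differences showed that members of a family did not move together. The log2 signal of miR-99a minus that of miR-100 was 0.57, 0.88, 0.84, 0.82 and 0.64 in normal gland and -2.82, -1.16, -0.67, -0.82 and -0.94 in MMTV-H2N. The groups did not overlap, and the tumors varied more, with the first tumor lowest. The difference fell by 2.03, or 4.08-fold (two-sided exact permutation test, p 0.00794, the smallest that 5 against 5 can give; adjusted p 0.0127 over 8 such tests).

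The difference of miR-99a and miR-99b, genes of separate clusters with the same seed, fell by 2.95 (from 3.92 ± 0.34 to 0.96 ± 1.40, SD, n = 5 each; exact permutation adjusted p 0.0127). The difference of miR-125b and miR-125a was 1.31, 1.21, 1.19, 1.51 and 1.97 in normal gland and 0.04, -0.72, -0.53, -0.41 and -0.59 in MMTV-H2N, again without overlap. It fell by 1.88, or 3.68-fold (exact permutation adjusted p 0.0127). Of the 2 members of the Mir99b cluster, miR-99b minus miR-125a was -4.06 ± 0.32 in normal gland and -4.48 ± 0.47 in MMTV-H2N, a difference of -0.42 that was not called (exact permutation p 0.127, adjusted p 0.145). The 4 values kept their direction and side of the threshold when the 5th percentile of the array was subtracted first and when any of the 10 arrays was left out. The 4 miR-99a spots of the first tumor had an SD of 1.06 on the log2 scale. Without that tumor miR-99a minus miR-100 fell by 1.65.

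**Figure D2:**
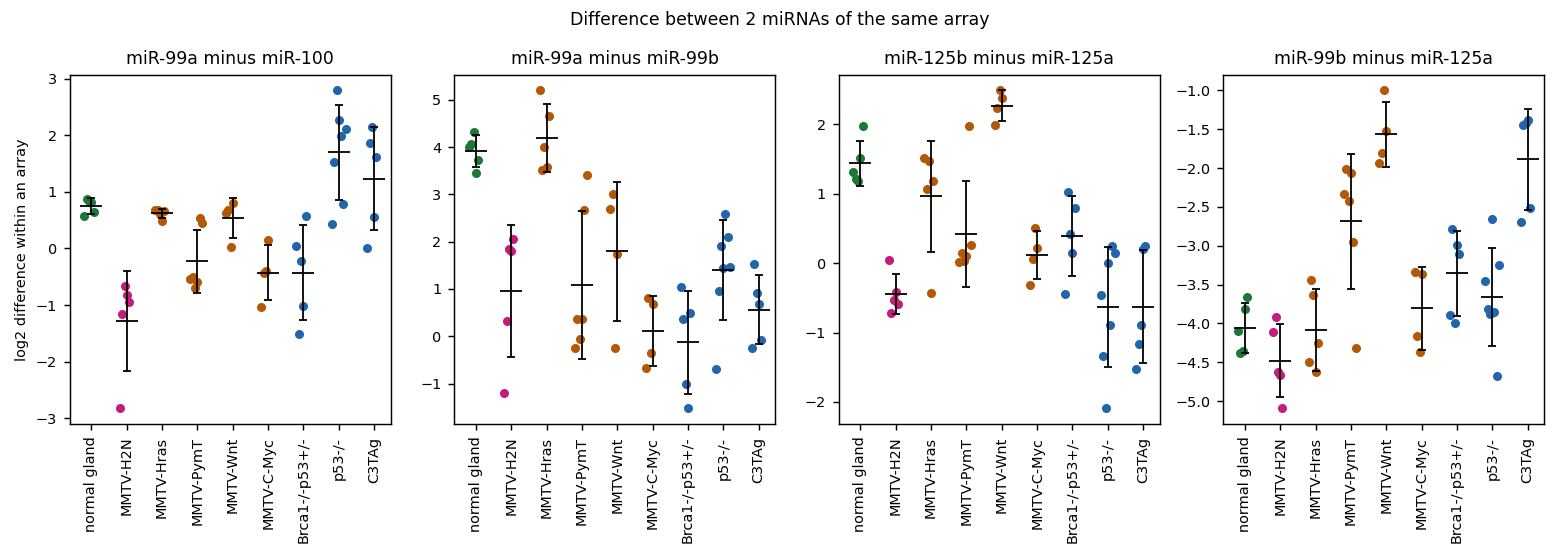
Log2 signal of a member minus that of another on the same array, for 4 pairs, by group (points, arrays; bars, mean and SD). Colours are those of the plot of signals. The MMTV-H2N tumors lie below normal gland without overlap for miR-99a minus miR-100, miR-99a minus miR-99b and miR-125b minus miR-125a, but not for miR-99b minus miR-125a; the height of a panel depends on its probes and has no meaning of its own.

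Against each other tumor model, 8 of 35 member differences of MMTV-H2N were called. miR-99a was again the member that was lower. It was 6.29-fold lower than in MMTV-Hras (log2 fold -2.65, SE 0.51, adjusted p 4.23e-05 in limma), where 50.9% of miRNAs were called, and 3.60-fold lower than in MMTV-Wnt (-1.85, SE 0.54, adjusted p 0.00348), where 54.2% were. Its signal ran from 8508 to 17211 with a median of 11024 in MMTV-Hras (n = 5), and was 7361 to 33770 in MMTV-Wnt (n = 4), so neither overlapped the MMTV-H2N range of 443 to 1975 before scaling. Scaled levels of 1.06 to 3.08 in MMTV-H2N did not overlap those of MMTV-Hras (3.77 to 5.17) but did overlap those of MMTV-Wnt (2.52 to 5.19). Against MMTV-PymT, where 56% of miRNAs were called, and MMTV-C-Myc, where 27.5% were, no member was called. The miR-99a signal of MMTV-C-Myc, 595 to 855, lay within the MMTV-H2N range.

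miR-100 was called higher than in each of the 3 basal models. It was 3.68-fold higher in MMTV-H2N than in Brca1-/-p53+/- (log2 fold 1.88, SE 0.51, adjusted p 0.00333), where 37.7% of miRNAs were called, and 5.24-fold higher than in p53-/- (2.39, SE 0.47, adjusted p 2.05e-05), where 74.9% were. Its signals of 1922 to 3342 in MMTV-H2N compare with 227 to 1456 in Brca1-/-p53+/- and 127 to 401 in p53-/-, without overlap before scaling. The scaled levels, on which the folds rest, did overlap, at 2.00 to 4.47 in MMTV-H2N, 0.27 to 3.91 in Brca1-/-p53+/- and 0 to 2.08 in p53-/-. In p53-/- miR-100 was above the detection limit on 3 of 7 arrays, so the size of that fold is uncertain. In C3TAg, where 75.4% of miRNAs were called, miR-100 was above the detection limit on 0 of 5 arrays (signals of 108 to 258). The fitted log2 fold was 3.36 (SE 0.51, adjusted p 2.2e-07 in limma). Against the limit of each C3TAg array the level in MMTV-H2N was only bounded, as at least 4.15-fold higher under median scaling. Over other settings the fitted log2 fold ran from 0.56 to 5.19, so this bound holds for the median scaling only.

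miR-125a was higher in MMTV-H2N than in MMTV-Wnt (3.74-fold, log2 fold 1.90, SE 0.49, adjusted p 0.00115) and in C3TAg (8.20-fold, log2 fold 3.04, SE 0.47, adjusted p 2.74e-07), and miR-125b was higher than in C3TAg (9.35-fold, log2 fold 3.22, SE 0.59, adjusted p 5.68e-06). On C3TAg arrays miR-125a was 2.69 to 21.19 times the 5th percentile and miR-125b 1.88 to 24.97 times, so the sizes of these folds are uncertain. The miR-125a difference from MMTV-Wnt was 0.05 without scaling (adjusted p 0.95), where signals were 7968 to 18108 in MMTV-H2N and 6315 to 19683 in MMTV-Wnt and overlapped. The array medians ran from 140 to 674 in MMTV-H2N and from 492 to 1735 in MMTV-Wnt. The deposited signals of all 4 MMTV-Wnt arrays, 2 of 5 MMTV-Hras arrays and 1 of 4 MMTV-C-Myc arrays carry 3 significant digits, and none of MMTV-H2N or normal gland do, so this difference in the files and the MMTV-Wnt model cannot be told apart. The summed scaled level of the epithelial markers ran from 0.03 to 8.82 in MMTV-Wnt and from 6.67 to 8.33 in MMTV-H2N, and its part in the member differences was not tested. miR-99b was called against no model. Of the 8 called differences, those of miR-99a from MMTV-Hras and of miR-100 from p53-/- passed the threshold under every alternative run, the latter with most p53-/- arrays below the detection limit for miR-100. Scaling to the brightest miRNAs ended the calls against C3TAg (miR-100 0.56, miR-125a 0.24, miR-125b 0.43) and that of miR-100 against Brca1-/-p53+/- (0.26). Those of miR-99a and miR-125a against MMTV-Wnt were lost with the arrays of 3-digit values as a block (-1.53 and 1.40, adjusted p 0.104 and 0.103).

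The 27 differences that were not called lay between -1.01 and 1.07, and 19 of them changed sign under at least 1 alternative. The count of called differences was 8 as given, 13 without the fifth MMTV-H2N tumor and 17 without scaling, and ran from 6 (with the arrays of 3-digit values as a block) to 19 (floor subtracted, unscaled) over the settings other than leaving out an array. The shares of all miRNAs called under these other settings are not given here.

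**Figure D3:**
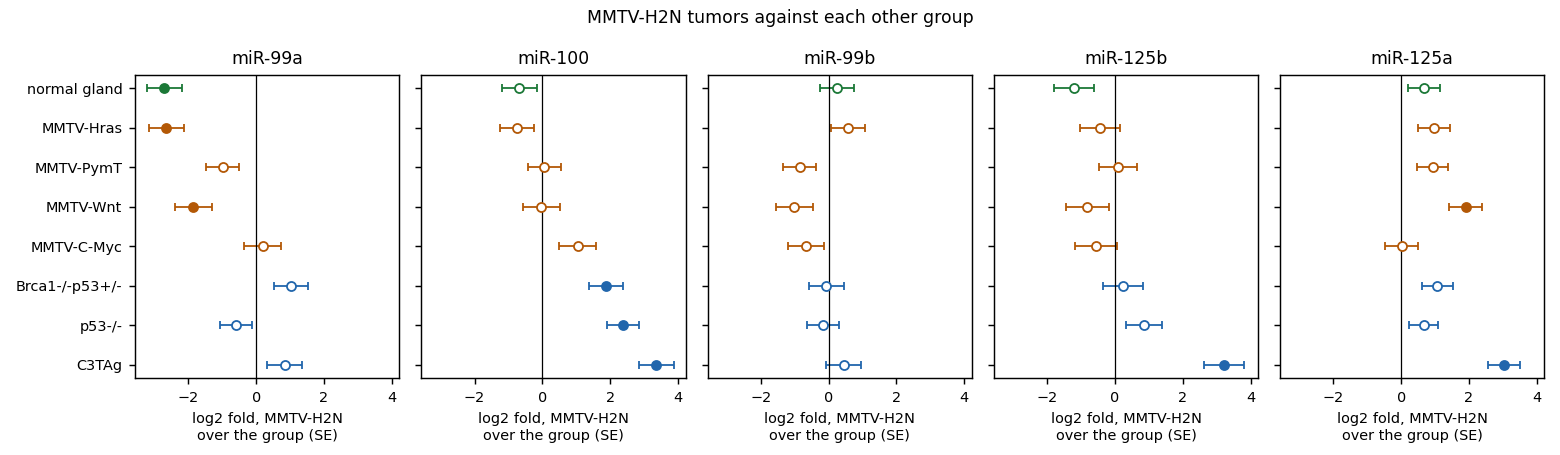
Log2 fold of MMTV-H2N over each of the 8 other groups for each member, with its SE from limma; filled points passed an adjusted p of 0.05 over 334 miRNAs, and colours are those of the plot of signals. miR-99a was lower than in normal gland, MMTV-Hras and MMTV-Wnt, and miR-100 was higher than in the 3 basal models, of which only the difference from p53-/- passed the threshold under every scaling.

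Against the unweighted mean of all 8 other groups, miR-125a was higher in MMTV-H2N (2.23-fold, log2 fold 1.16, SE 0.35, adjusted p 0.00652) and was the 1 member called, while 38.3% of all miRNAs were. miR-100 (0.91, SE 0.38, adjusted p 0.0538) and miR-99a (-0.84, SE 0.38, adjusted p 0.0736) were close to the threshold with opposite signs. miR-99b (-0.19, adjusted p 0.754) and miR-125b (0.17, adjusted p 0.797) were not. The miR-125a call was lost without the first MMTV-H2N tumor (0.79, adjusted p 0.0906) and when arrays were scaled to the brightest miRNAs (0.59, adjusted p 0.0642). Without the C3TAg and p53-/- arrays miR-125a remained called (0.92, adjusted p 0.0369) and miR-99a was called as well (-1.17, adjusted p 0.0243).

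Over all groups the order of levels differed between members. Scaled miR-99a was highest in normal gland (4.73 ± 0.30, SD, n = 5), then MMTV-Hras (4.67 ± 0.60), MMTV-Wnt (3.86 ± 1.09), MMTV-PymT (3.00 ± 1.11), p53-/- (2.60 ± 0.64), MMTV-H2N (2.01 ± 0.84), MMTV-C-Myc (1.83 ± 0.61), C3TAg (1.17 ± 0.73) and Brca1-/-p53+/- (0.99 ± 1.04). miR-100 followed a different order, with MMTV-Hras (4.05 ± 0.58) and normal gland (3.98 ± 0.42) first, MMTV-Wnt (3.33 ± 0.85), MMTV-H2N (3.29 ± 0.96) and MMTV-PymT (3.23 ± 0.74) together, and MMTV-C-Myc (2.25 ± 0.83), Brca1-/-p53+/- (1.42 ± 1.47), p53-/- (0.90 ± 0.72) and C3TAg (-0.06 ± 0.21) below. Neighbours in these orders overlapped in every case.

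miR-99b varied least between groups in its mean scaled level, from 2.06 ± 0.68 in MMTV-Wnt, 1.91 ± 0.73 in MMTV-PymT and 1.72 ± 0.64 in MMTV-C-Myc through 1.21 ± 0.83 in p53-/-, 1.12 ± 0.69 in Brca1-/-p53+/-, 1.05 ± 1.38 in MMTV-H2N, 0.81 ± 0.41 in normal gland and 0.61 ± 0.58 in C3TAg to 0.48 ± 0.93 in MMTV-Hras. It was above the limit on 3 of 7 p53-/- and 1 of 5 C3TAg arrays. miR-125a was highest in MMTV-H2N (5.53 ± 1.05) and MMTV-C-Myc (5.52 ± 0.79), followed by normal gland (4.87 ± 0.26), p53-/- (4.86 ± 0.64), MMTV-PymT (4.60 ± 0.54), MMTV-Hras (4.56 ± 0.75), Brca1-/-p53+/- (4.47 ± 0.74), MMTV-Wnt (3.63 ± 0.39) and C3TAg (2.50 ± 1.06). miR-125b was highest in normal gland (6.31 ± 0.36), then MMTV-Wnt (5.90 ± 0.57), MMTV-C-Myc (5.64 ± 0.80), MMTV-Hras (5.52 ± 0.72), MMTV-H2N (5.09 ± 1.30), MMTV-PymT (5.02 ± 0.75), Brca1-/-p53+/- (4.86 ± 0.93), p53-/- (4.23 ± 1.19) and C3TAg (1.87 ± 1.38). Neighbouring groups overlapped for these 3 members too. On 1 Brca1-/-p53+/- array the 4 miR-125a spots ran from 78.4 to 9742, so its level there is uncertain.

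Normal gland was compared with the unweighted mean of the 8 models to place the MMTV-H2N values. miR-99a (4.63-fold, log2 fold 2.21), miR-100 (1.68) and miR-125b (1.54) were higher in normal gland, 3 of 5 members, while 65.3% of all miRNAs were called and 27.5% were called higher. miR-99b (-0.46) and miR-125a (0.41) were not called. The median log2 fold was 1.54 over the members and -0.20 over all miRNAs. Normal gland signals of miR-99a ran from 6162 to 13516, and tumors from 192 to 33770 with a median of 1221. Before scaling, every MMTV-Hras (8508 to 17211) and MMTV-Wnt tumor (7361 to 33770) lay above the lowest normal gland. Some MMTV-PymT tumors (1660 to 13613) did as well. The scaled mean of MMTV-Hras was 4.67, against 4.73 in normal gland, so the lower miR-99a was not shared by all models. Without the C3TAg and p53-/- arrays the same 3 members were called (2.00, 1.05 and 0.97, adjusted p 0.000234, 0.0414 and 0.0456). The miR-125b call was lost under scaling to the 75th percentile (0.74, adjusted p 0.0996), and under scaling to the brightest miRNAs only miR-99a (1.06) of these 3 stayed called.

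Basal (17) and luminal (24) tumors were compared because the study divides its models by that lineage. miR-100 (5.64-fold, log2 fold -2.50, SE 0.32, adjusted p 1.49e-09 in limma), miR-125b (3.18-fold, -1.67, SE 0.39, adjusted p 0.000192) and miR-99a (2.61-fold, -1.38, SE 0.39, adjusted p 0.00142) were lower in basal tumors, 3 of 5 members, against 70.7% of all miRNAs called and 26% called lower. miR-125a (-0.73, adjusted p 0.0602) and miR-99b (-0.42, adjusted p 0.211) were not called. miR-100 signals ran from 108 to 1456 in basal tumors with a median of 241, and from 625 to 21178 in luminal tumors with a median of 4833. Basal miR-125b ran from 196 to 18177 (median 2799) against 5178 to 110643 (median 17581), and basal miR-99a from 192 to 1265 (median 686) against 443 to 33770 (median 4547). The classes overlapped for each of them. miR-100 was above the detection limit on 8 of 17 basal and 24 of 24 luminal arrays. All 5 epithelial markers were called lower in basal than in luminal tumors (median log2 fold -3.31), and the part of this in the member differences was not tested.

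These class differences rested on the scaling and on the models. The median of all miRNAs was 0.55 higher in basal tumors as given, 2.57 higher when arrays were scaled to the brightest miRNAs and 0.83 lower unscaled. miR-100 stayed lower under each scaling but was not called under the former (-0.48, adjusted p 0.0798), whereas miR-99a (0.63) and miR-125b (0.35) turned sign there without a call, and miR-99b (1.60, adjusted p 6.46e-06) and miR-125a (1.29, adjusted p 5.79e-05) were then called higher in basal tumors. With the 8 model means as samples 1 member, miR-100, stayed called.

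**Figure D4:**
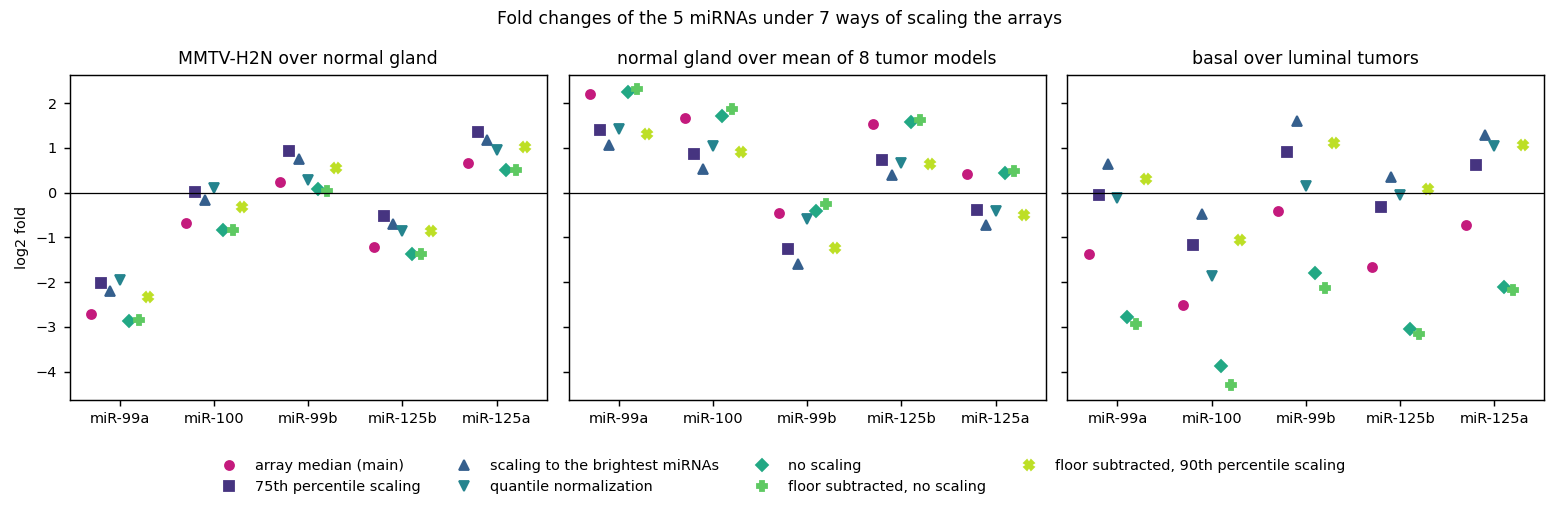
Log2 fold of each member under 7 ways of scaling the arrays, for MMTV-H2N over normal gland, normal gland over the mean of the 8 models, and basal over luminal tumors. miR-99a stays between -2.87 and -1.96 in the first comparison, while in the third every member but miR-100 lies on both sides of 0.

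Within arrays, miR-99a minus miR-100 was higher in basal tumors by 1.11 (0.94 ± 1.23 against -0.18 ± 0.87, SD; permutation test with 100000 resamples, adjusted p 0.0113) and miR-125b minus miR-125a was lower by 0.94 (-0.33 ± 0.87 against 0.61 ± 1.04; adjusted p 0.0127). These tests treat tumors of the same model as independent. With the 8 model means as samples the differences were 0.99 and -0.95 and neither was called (exact permutation adjusted p 0.257 and 0.286). With C3TAg and p53-/- left out, Brca1-/-p53+/- was the only basal model, and its strain and model cannot be told apart. The differences were then -0.25 and -0.22 (exact permutation adjusted p 0.741 and 0.751), so the first turned sign and neither was called. miR-99a minus miR-99b (-0.96, adjusted p 0.0806) and miR-99b minus miR-125a (0.31, adjusted p 0.383) did not pass the threshold.

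The let-7 miRNAs encoded beside the members, which act on growth and timing genes, were not called lower in MMTV-H2N than in normal gland. let-7c, next to miR-99a, gave 81383, 73983, 133248, 107292 and 160502 in normal gland and 66295, 152715, 129862, 76587 and 140330 in MMTV-H2N. These ranges overlapped, and the log2 fold was 0.16 (SE 0.43, adjusted p 0.753), against -2.71 for miR-99a. let-7a, which has further gene copies, had a log2 fold of 0.68 (SE 0.43, adjusted p 0.171). let-7e, between miR-99b and miR-125a, was higher in MMTV-H2N (2.60-fold, log2 fold 1.38, SE 0.46, adjusted p 0.012), with signals of 9953 to 20614 in normal gland and 9539, 61871, 57427, 28210 and 50387 in the tumors. The first tumor lay just below the lowest normal gland in signal, while its scaled level of 6.09 was above the highest normal gland (5.85). Its 4 let-7e spots ran from 239.4 to 40576. Of the 6 other let-7 family miRNAs 3 were called higher and 1 lower, against 28.7% and 22.5% of all miRNAs. let-7c also has a gene on chromosome 15, which the array cannot separate. The mature sequences of let-7a, let-7c and let-7e are nearly identical. Cross-hybridisation between their probes was not tested, so their separate levels are uncertain to that extent.

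Against the mean of the other 8 groups all 3 cluster let-7 miRNAs were called higher in MMTV-H2N (let-7a 3.60-fold, let-7c 2.24-fold, let-7e 4.49-fold), beside miR-125a alone among the members, while 20.7% of all miRNAs were called higher. In basal tumors all 3 were called lower (log2 folds of -2.21, -1.13 and -2.15), while 26% of all miRNAs were called lower and 70.7% were called. The let-7 miRNAs outside the clusters were alike, with 5 of 6 called higher in MMTV-H2N and 5 of 6 called lower in basal tumors.

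**Figure D5:**
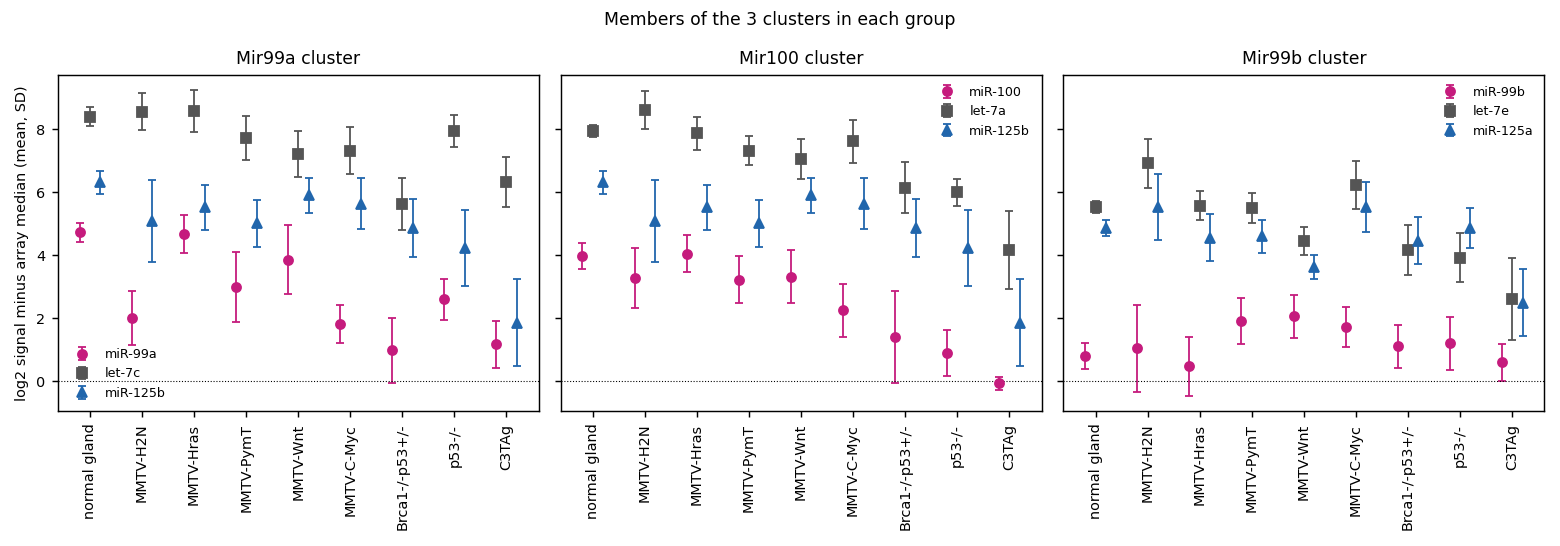
Scaled level (log2 signal minus array median; mean and SD over the arrays of a group) of the members of the 3 gene clusters, by group. miR-99a is lower in MMTV-H2N (2.01) than in normal gland (4.73) while let-7c of the same cluster is not; miR-125b is drawn in 2 panels because its loci cannot be separated, and heights of different miRNAs are not comparable.

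Other miRNAs known in human cells to act on ERBB2 or ERBB3 were read beside miR-125. miR-205 (log2 fold -2.80, SE 0.90, adjusted p 0.00895) and miR-22 (-2.46, SE 0.45, adjusted p 2.02e-05) were lower in MMTV-H2N than in normal gland, and miR-331 was higher (1.83, SE 0.48, adjusted p 0.00171). miR-205 signals of 747 to 1695 in the tumors and 4857 to 20639 in normal gland did not overlap. miR-10a and miR-10b, which are related in sequence to miR-99/100 and lie in Hox gene clusters, were lower in MMTV-H2N, with log2 folds of -3.38 and -3.15 (adjusted p 4.34e-05 and 7.35e-07). These differences were not particular to MMTV-H2N. Normal gland over the mean of the 8 models was called for miR-205 (1.84), miR-22 (1.90), miR-331 (-1.19), miR-10a (3.03) and miR-10b (3.55). In MMTV-H2N against the other 8 groups, miR-22 (-0.87) was called. miR-205 (-1.31), miR-331 (0.87), miR-10a (-0.77) and miR-10b (0.01) were not.

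The miRNAs with patterns most like each member over the 46 arrays were found by Pearson's r of scaled levels, given as a description because all points share arrays and groups. miR-100 had the closest companions, miR-30c (0.94), miR-30b (0.94) and miR-26a (0.93). miR-99a was most like miR-191 (0.84), miR-182 (0.81) and miR-152 (0.79), and miR-125b was most like miR-29a (0.80), miR-26a (0.79) and let-7a (0.78). For miR-125a the nearest were let-7d (0.79), miR-690 (0.76) and miR-709 (0.75), and for miR-99b they were miR-27a (0.59), miR-20b (0.53) and miR-466 (0.53). Among the members r was 0.75 for miR-99a and miR-100, 0.76 for miR-100 and miR-125b, 0.70 for miR-125a and miR-125b, 0.53 for miR-99a and miR-125b, 0.44 for miR-99b and miR-125a and 0.01 for miR-99a and miR-99b. Without scaling, where overall brightness is shared by all points, these were 0.87, 0.88, 0.87, 0.75, 0.72 and 0.56. Spearman's rank correlation of scaled levels was lower for some pairs. It was 0.59 for miR-125a and miR-690, 0.64 for miR-125a and miR-709, and 0.51 for miR-125a and miR-125b. For miR-100 and miR-30c it was 0.93, close to Pearson's r.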

How the data were processed

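The members and lists were chosen with earlier results of these data known. The authors hybridised Hy3-labelled total RNA to a custom Agilent array (Sanger miR9.0 design) and kept the processed signals of plus-strand mouse probes. The raw table they deposited holds the intensity of 1336 spots, before normalization, and was used for all values. The deposited log2 table equals the log2 intensity minus the array median plus a constant, and served as an alternative. In the raw table, 1 column that matched no sample described here was not used. Detection calls were not used here.

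Log2 intensities were centred on the array median, and 4 spots per miRNA were averaged. limma 3.58.1 (lmFit, eBayes, R 4.3.3) was fitted to all 334 miRNAs with 1 mean per group over 46 arrays, or 1 mean per class over 41 tumors, two-sided, with Benjamini-Hochberg adjustment and a threshold of 0.05. The fit of group means was tested on simulated data for MMTV-H2N against normal gland, and the fit of class means was not. Differences between 2 miRNAs of an array were compared by permutation (Python 3.11.15, SciPy 1.17.1) and adjusted over 8 tests. The miRNAs named are the members, their cluster let-7 miRNAs, miR-10a and miR-10b, miR-331, miR-205 and miR-22, and the 3 miRNAs most like each member. Alternatives varied scaling, background, spot averaging, filter, weights, blocks, models and single arrays. The number of arrays limits precision, and tumors came from individual mice.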

Additional observations from a re-analysis of the deposited data

Results flagged for a closer look

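Among 45 sets of values (5 members in 9 groups), 2 had an array far from the others of its group by Dixon's test, and chance alone marks about 1 in 20 groups. miR-125a in MMTV-C-Myc had a scaled level of 4.34 in replicate 4, against 5.85 to 6.01 in the other tumors of that model. miR-125b in C3TAg had a scaled level of 4.21 in replicate 5, against 0.56 to 1.59 in the other C3TAg tumors.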

How the results depend on the processing

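Of 518 values recomputed under other settings, 406 kept their direction, their side of the threshold and, for counts, their size. Leaving out single arrays kept 1188 of 1229. The lower miR-99a of MMTV-H2N against normal gland, the within-array differences between these groups and the called differences of miR-99a from MMTV-Hras and of miR-100 from p53-/- stayed on the same side of the threshold under each setting run for them. Where a value moved, the cause was not tested. The share of all miRNAs called is given for the fits as reported and for the t-test and z-score rules below. Counts of members under other settings have no such share beside them. The median log2 fold of all miRNAs also moved with the scaling, from 0 to 1.05 for MMTV-H2N against normal gland, from -1.35 to 0.01 for normal gland against the models and from -1.23 to 2.57 for basal against luminal tumors.

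In MMTV-H2N against normal gland, miR-100 became 0.02 with scaling to the 75th percentile and 0.10 with quantile normalization, neither called. miR-125a was called there at 1.36 with scaling to the 75th percentile, 0.95 with quantile normalization, 1.18 with scaling to the brightest miRNAs and 1.01 with the floor subtracted and scaling to the 90th percentile, so 2 members were called under each of these. In a fit of just these groups miR-125b was called at -1.22, again with 2 members. Leaving out an array gave 1 to 2 called members (2 without MMTV-H2N replicate 1, where miR-125b was called), with miR-99b from -0.22 to 0.75 and miR-125b from -1.70 to -0.82.

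Against the other tumor models singly, the 8 calls became 14 with scaling to the 75th percentile, 13 with scaling to the brightest miRNAs, 14 with the floor subtracted and scaling to the 90th percentile, 17 without scaling, 19 with floor subtraction but no scaling, and 13 with array weights. Leaving out an array gave 8 to 13, the highest without MMTV-H2N replicate 5. Quantile normalization ended the calls of miR-99a against MMTV-Wnt (-1.34), miR-100 against Brca1-/-p53+/- (1.33) and miR-125a (0.44) and miR-125b (1.06) against C3TAg. Floor subtraction with scaling to the 90th percentile ended that of miR-100 against Brca1-/-p53+/- (0.32) and those of miR-125a (0.47) and miR-125b (0.77) against C3TAg. Of the 27 differences not called as reported, 19 were called under at least 1 alternative.

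Against the mean of the other 8 groups, miR-100 was called at 0.89 with scaling to the 75th percentile, 1.15 with quantile normalization, 0.94 with the floor subtracted and no scaling, 0.91 when just miRNAs at or above the median signal were tested, 0.99 with the median of the 4 spots and 0.98 with array weights. miR-99a was called at -0.86 with scaling to the 75th percentile, -1.41 with scaling to the brightest miRNAs and -1.31 with the floor subtracted and scaling to the 90th percentile, and under the last of these miR-125a was not called (0.63), nor was it with scaling to the brightest miRNAs (0.59). miR-125b turned negative without a call under quantile normalization (-0.29), scaling to the brightest miRNAs (-0.39) and floor subtraction with scaling to the 90th percentile (-0.33). The count of called members was 3 with scaling to the 75th percentile, 2 with quantile normalization, floor subtraction without scaling, the filter, the median of the spots or array weights, and 0 with the methods' t-test at its threshold of 0.001, after Benjamini-Hochberg adjustment, or by the methods' z-score rule, which called 21, 45 and 34 of all miRNAs. Leaving out an array gave 0 to 2, with miR-99a from -1.11 to -0.60 (called without MMTV-H2N replicate 3, MMTV-Wnt replicate 3 or MMTV-PymT replicate 1), miR-99b from -0.64 to 0.32, miR-100 from 0.61 to 1.23 (called without any of 9 arrays), miR-125a from 0.79 to 1.52 and miR-125b from -0.31 to 0.57, and 0 members were called without MMTV-H2N replicate 1.

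With the replicate number as a block, miR-100 against the other groups was called at 0.98 (adjusted p 0.024 in limma) and 2 members were called. The block changed no other call. Deviations from the group means had a mean r of 0.03 between arrays with the same number, against -0.01 for other numbers. Such values cannot exclude weak pairing by number, and the sample labels describe none.

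In normal gland against the models, miR-99b was called lower with scaling to the 75th percentile (-1.26), scaling to the brightest miRNAs (-1.60) and floor subtraction with scaling to the 90th percentile (-1.24). miR-125a was -0.39 and -0.41 with scaling to the 75th percentile and quantile normalization, -0.51 with the floor subtracted and scaling to the 90th percentile, and -0.73 (called) with scaling to the brightest miRNAs. The miR-125b call was lost under these settings (0.74, 0.66, 0.64 and 0.40), and that of miR-100 with scaling to the brightest miRNAs (0.53).

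In basal against luminal tumors, scaling to the 75th percentile gave -0.05 for miR-99a, 0.92 for miR-99b (called), 0.61 for miR-125a and -0.33 for miR-125b. Quantile normalization gave -0.11, 0.15, 1.05 (called) and -0.05 for them, scaling to the brightest miRNAs gave 0.63, 1.60 (called), 1.29 (called) and 0.35 with miR-100 at -0.48, and floor subtraction with scaling to the 90th percentile gave 0.31, 1.12 (called), 1.07 (called) and 0.08. Without scaling, 5 members were called lower, miR-99b at -1.80 and miR-125a at -2.11, as with the floor subtracted and no scaling (5 members, -2.12 and -2.17). The median log2 fold of all miRNAs was itself -0.83 and -1.23 under these settings. With model as a random block (miR-99a -1.48, miR-125b -1.77) or the model means as samples (-1.49 and -1.78), 1 member was called, and with model means the within-array differences were 0.99 for miR-99a minus miR-100 and -0.95 for miR-125b minus miR-125a, neither called. miR-125a was called at -1.04 with the arrays of 3-digit values as a block, at -1.30 without p53-/-, -0.96 without MMTV-Wnt and -0.90 without Brca1-/-p53+/-, and miR-99b at -0.67 without MMTV-Hras. Leaving out an array moved miR-125a from -0.84 to -0.56 (called without any of 8 arrays) and miR-99a minus miR-99b from -1.09 to -0.81 (called without MMTV-H2N replicate 1).

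Leaving out C3TAg and p53-/-, the arrays with the fewest miRNAs above the detection limit, was chosen after seeing the data. The basal class then held Brca1-/-p53+/- alone. Within-array differences of basal and luminal tumors became -0.25 for miR-99a minus miR-100 and -0.22 for miR-125b minus miR-125a, and miR-125b lost its call (-0.53). Against the other groups miR-99a was called (-1.17), miR-125b turned to -0.45 without a call, and 2 members were called. Where a member lay near the limit, as miR-100 and miR-99b did on C3TAg arrays, its level is bounded by background.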
